A study of Homo sapiens with 6 samples.

Results

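Aldo-keto reductases are a superfamily in which most enzymes use NADPH to reduce aldehydes and ketones to alcohols. The set described here holds 10 aldo-keto reductases, AKR1A1, AKR1B1, AKR1B10, AKR1B15, AKR1C1, AKR1C2, AKR1C3, AKR1C4, AKR1D1 and AKR7A2. They were chosen by name with earlier results of these data known, and all 10 had a row among the 35856 genes of the expression table. Their RNA was measured in HCCLM3, an established human hepatocellular carcinoma line that the labels call hepatoma cells. Of 6 libraries, 3 came from cells transfected with a vector carrying the long noncoding RNA LINC00862 (the LINC00862 group), and 3 from cells given the vector without it (Empty, named NC in the labels). The study names pcDNA3.1, a plasmid with a viral promoter, as the vector for LINC00862. Whether the sequenced cells were transiently or stably transfected, and after what time they were collected, was not given in the sources used here. The total count per library lay between 58241123 and 68229070.

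The enzymes of the set fall into branches with different substrates. AKR1C enzymes are hydroxysteroid dehydrogenases, which set the balance between active and inactive androgens, progestins and prostaglandins, and AKR1D1 is the steroid 5β-reductase that shapes the ring system of bile acids. AKR1B enzymes reduce glucose, retinal and lipid-derived aldehydes, whereas AKR1A1 and AKR7A2 are broadly expressed aldehyde reductases. In liver, these enzymes clear reactive carbonyls and take part in bile acid and steroid turnover, and AKR1B10 and several AKR1C genes are known as targets of the oxidative stress factor NRF2 and as genes often raised in hepatocellular carcinoma.

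The AKR1C genes lie side by side on chromosome 10 within 255.697 kb (hg38), with AKR1C1 at 4963253 to 4983283 on the plus strand, AKR1C2 at 4987400 to 5017955 on the minus strand, AKR1C3 at 5035354 to 5107680 and AKR1C4 at 5195462 to 5218949, the last pair on the plus strand. Each codes for 323 residues. The first 60 coding bases, which lie in the first coding exon of each gene, are shown because the similarity of these genes limits how well their reads can be told apart. Capitals mark the 12 positions at which the 4 genes are not all the same, and the stretches lie at chr10:4963445-4963504 (AKR1C1), chr10:5003776-5003835 on the minus strand (AKR1C2), chr10:5094445-5094504 (AKR1C3) and chr10:5196868-5196927 (AKR1C4) of GRCh38 as annotated by GENCODE 29.
AKR1C1: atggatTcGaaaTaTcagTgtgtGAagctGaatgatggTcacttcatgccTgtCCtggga
AKR1C2: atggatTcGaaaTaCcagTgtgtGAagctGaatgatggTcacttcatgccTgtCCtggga
AKR1C3: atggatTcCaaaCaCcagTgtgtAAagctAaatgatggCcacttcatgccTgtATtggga
AKR1C4: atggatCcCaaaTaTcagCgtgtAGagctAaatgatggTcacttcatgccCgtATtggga
In these 60 bases AKR1C1 and AKR1C2 differed at 1 position, and AKR1C3 differed from AKR1C4 at 7. Over the whole coding sequence AKR1C1 and AKR1C2 were identical at 950 of 969 bases (98.0%), against 91.7% for AKR1C1 and AKR1C3, 91.2% for AKR1C2 and AKR1C3, and 88.7% for AKR1C3 and AKR1C4. Of all 150-base stretches of the AKR1C2 transcript, 20.6% also occurred in AKR1C1, and 11.3% of those of AKR1C1 occurred in AKR1C2. AKR1C3 shared 1.33% of its stretches with AKR1C2, and the other 7 genes shared none with another gene of the superfamily. How reads that match several genes were counted was not given in the sources used here, so the division of reads between AKR1C1 and AKR1C2 is uncertain.

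The transfected RNA was higher in the libraries labelled for it. LINC00862 had counts of 11, 21 and 6 in Empty and 145, 121 and 76 in LINC00862, and its log2 fold change was 3.22 (standard error, SE, of 0.53, adjusted p = 0.000583, edgeR), or 3.83 without Empty library 2. Markers of cell identity moved with the groups as well. For scale, 34.4% of all genes tested were higher in LINC00862 and 29.8% lower at an adjusted p under 0.05. Of 10 tested hepatocyte markers 9 were higher and 1 was lower in LINC00862, and the summed level of the 13 listed markers was 7.72 to 7.85 FPKM in Empty and 1800 to 2212 FPKM in LINC00862. Among them TTR, APOH and APOA2 were listed at 0 in every Empty library, ALB averaged 0.00780 FPKM in Empty and 1.51 FPKM in LINC00862, and APOA1 was too low to be tested. APOH and APOA2 were near 0 in LINC00862 as well. The marker that was lower, SERPINA1, stood at 1.11, 1.22 and 1.53 FPKM in Empty and at 0.0751, 0.144 and 0.0658 FPKM in LINC00862. Most of the summed level came from the fibrinogen genes FGA, FGB and FGG, which averaged 2.67, 1.75 and 1.94 FPKM in Empty. Of 4 listed fetal liver markers 2 were tested, and 1 was higher and 1 lower in LINC00862. The lower one, AFP, averaged 0.104 FPKM in Empty and was listed at 0 in LINC00862. H19, the higher one, averaged 0.108 FPKM in Empty and 0.302 FPKM in LINC00862. Of 8 fibroblast and mesenchymal markers 3 were lower and 2 higher, with sums of 529 to 621 FPKM in Empty and 15.5 to 19.7 FPKM in LINC00862, and VIM fell from 539 to 3.77 FPKM. Of 5 endothelial and 5 leukocyte markers, 1 each was higher (CDH5 and CD68), and their sums were 1.20 to 2.22 FPKM in Empty and 4.47 to 9.68 FPKM in LINC00862. The labels give both groups as HCCLM3, and whether the cultures differed in more than LINC00862 was not tested, so each difference below is one between these groups of libraries and cannot be told apart from such a difference. The part of the marker shifts in the results below was not tested either, and in bulk RNA a smaller share of cells that express a gene cannot be told apart from less RNA per cell.

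All 10 aldo-keto reductases had enough counts for the comparison, made by the quasi-likelihood method of edgeR with Benjamini-Hochberg adjustment. At an adjusted p under 0.05, 8 of the 10 differed between the groups, 7 being up-regulated and 1 down-regulated in LINC00862. Over all 20741 genes tested 64.2% passed, 34.4% as higher and 29.8% as lower, so passing the test was common, and the share of the set that passed (80%) was not far above it. The signed median log2 fold change was 6.64 over the 10 genes and 0.11 over all genes tested. In the latter rises and falls cancel, so it does not measure the usual size of a change. It was 0.32 with upper quartile scaling and -0.051 with scaling by library size alone. AKR1C3, the smallest of the 7 rises, ranked 1755 by log2 fold change among all genes tested. The levels of 8 of the 10 genes did not overlap between the groups, compared with 71.1% of all genes tested. Levels are given as FPKM, in which fragments are scaled for the length of the transcript and for the mapped fragments of the library. The order of genes by FPKM therefore depends on the lengths used.

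**Figure D1:**
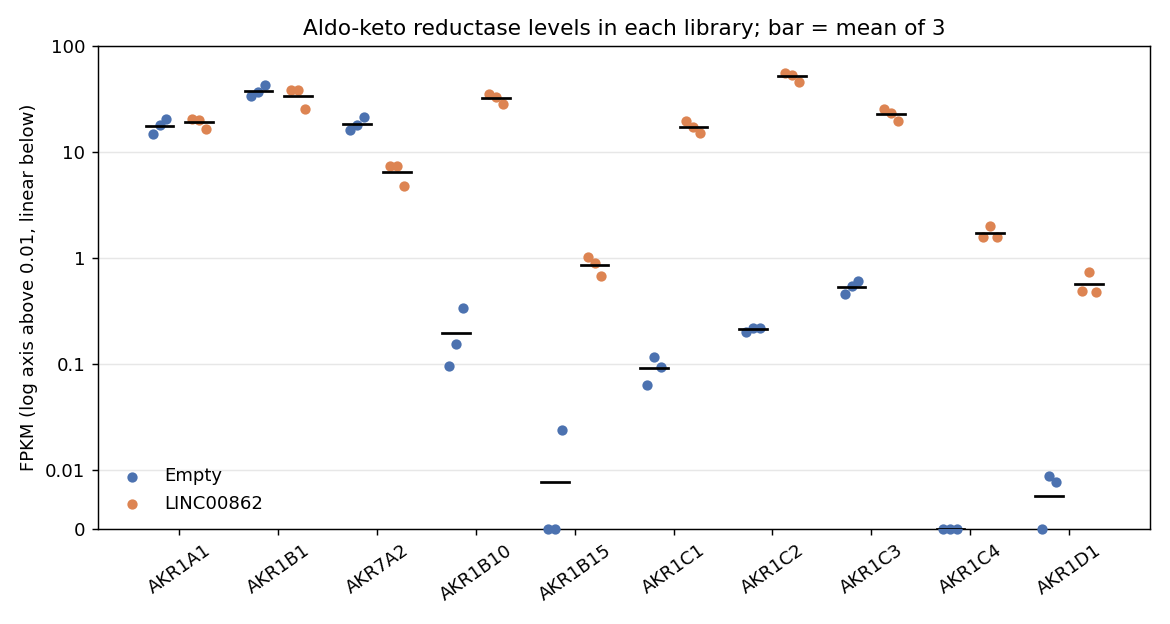
FPKM of each aldo-keto reductase in each library, with points for the 3 Empty (blue) and 3 LINC00862 (orange) libraries and a bar at each mean, on an axis that is logarithmic above 0.01 and linear below. AKR1A1 and AKR1B1 overlap between the groups, AKR7A2 is lower in LINC00862, and the other 7 genes rise from below 1 FPKM, with AKR1C4 at 0 in every Empty library.

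AKR1C2 (ENSG00000151632), the type 3 3α-hydroxysteroid dehydrogenase that inactivates dihydrotestosterone, reached the highest level of the set. It stood at 0.200, 0.220 and 0.218 FPKM in Empty libraries 1, 2 and 3 and at 55.9, 53.3 and 46.2 FPKM in LINC00862 libraries 1, 2 and 3. No library of one group came near the other. Its mean rose from 0.213 ± 0.0110 to 51.8 ± 5.05 FPKM (SD, n = 3), a log2 fold change of 8.09 (SE 0.19, 95% interval 7.66 to 8.51, adjusted p = 2.63e-08, edgeR).

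AKR1C1 (ENSG00000187134), a 20α-hydroxysteroid dehydrogenase that inactivates progesterone, followed the same course at a lower level. Its FPKM was 0.0629, 0.117 and 0.0945 in Empty and 19.6, 17.3 and 15.1 in LINC00862. The groups did not overlap, and the log2 fold change was 7.69 (SE 0.28, 95% interval 7.05 to 8.33, adjusted p = 9.13e-08, edgeR). The counts behind it were 38, 68 and 56 in Empty against 13120, 10007 and 8854 in LINC00862. AKR1C2 was 2.46 ± 0.662 times AKR1C1 in FPKM in Empty and 3.00 ± 0.125 times in LINC00862, a difference that did not exceed the spread (exact two-sided permutation p = 0.4).

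AKR1C3 (ENSG00000196139), the 17β-hydroxysteroid dehydrogenase that makes testosterone and also acts as a prostaglandin F synthase, was the most abundant AKR1C gene in Empty. Its FPKM was 0.452, 0.539 and 0.604 in Empty and 25.2, 23.1 and 19.6 in LINC00862, with no overlap. The log2 fold change of 5.55 (SE 0.21, 95% interval 5.08 to 6.02, adjusted p = 9.83e-08, edgeR) was smaller than those of its neighbours, and its interval lay below those of AKR1C1 and AKR1C2. In FPKM, AKR1C3 was 6.06 ± 1.32 times AKR1C1 in Empty and 1.31 ± 0.0254 times in LINC00862. The shift was seen in every library (exact permutation p = 0.1, the smallest that 3 against 3 allow). In counts without scaling for length the ratio was 2.69 ± 0.538 in Empty and 0.584 ± 0.0112 in LINC00862, so AKR1C3 then lay below AKR1C1.

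AKR1C4 (ENSG00000198610), the member of the cluster known as the liver enzyme that acts on bile acid precursors, had no count in any Empty library. It had 230, 255 and 202 counts in LINC00862, or 1.57, 2.01 and 1.57 FPKM. Against a floor of 3 counts over the Empty group the expression was at least 244-fold higher, and the test passed (adjusted p = 9.9e-06, edgeR). The fitted log2 fold change, 10.89, depends on the prior count and gives no bound. On the opposite strand, the unnamed transcript AL355303 lies inside AKR1C4 and had 71 counts over the 3 LINC00862 libraries, 10.3% of the count of AKR1C4, and AL391427 lies inside AKR1C2 with 263 counts, 0.374% of that of AKR1C2. The libraries kept the strand, but whether the counting used it was not given in the sources used here.

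The promoters of the AKR1C genes are shown because the 4 genes rose together. Each run covers 250 bases before to 50 bases after an annotated start in RefSeq (GRCh38.p14), read 5′ to 3′ on the strand of the gene. The places are chr10:4963165-4963464 on the plus strand for AKR1C1, chr10:5003808-5004107 on the minus strand for AKR1C2, chr10:5048531-5048830 on the plus strand for the first of 2 AKR1C3 windows and chr10:5196587-5196886 on the plus strand for AKR1C4. Capitals mark matches, on either strand, to the CCAAT box (CCAAT, or ATTGG on the other strand) and the TATA box (TATAAA, or TTTATA).
AKR1C1: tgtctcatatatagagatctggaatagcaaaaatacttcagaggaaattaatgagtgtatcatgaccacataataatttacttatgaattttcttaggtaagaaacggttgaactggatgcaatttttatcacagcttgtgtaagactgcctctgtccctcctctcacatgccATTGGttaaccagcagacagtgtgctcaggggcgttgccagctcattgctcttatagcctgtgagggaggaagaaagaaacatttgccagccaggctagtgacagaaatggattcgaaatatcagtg
AKR1C2: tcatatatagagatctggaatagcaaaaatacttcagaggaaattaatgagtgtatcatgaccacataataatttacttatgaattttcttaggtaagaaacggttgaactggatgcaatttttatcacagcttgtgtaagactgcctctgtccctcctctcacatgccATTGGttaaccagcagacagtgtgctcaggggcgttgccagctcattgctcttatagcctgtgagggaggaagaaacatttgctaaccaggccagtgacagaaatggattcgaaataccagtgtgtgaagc
AKR1C3: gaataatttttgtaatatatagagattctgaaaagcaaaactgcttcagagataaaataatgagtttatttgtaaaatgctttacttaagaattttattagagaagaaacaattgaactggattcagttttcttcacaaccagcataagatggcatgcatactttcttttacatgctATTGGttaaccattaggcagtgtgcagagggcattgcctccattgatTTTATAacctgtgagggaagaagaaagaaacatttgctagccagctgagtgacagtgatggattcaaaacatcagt
AKR1C4: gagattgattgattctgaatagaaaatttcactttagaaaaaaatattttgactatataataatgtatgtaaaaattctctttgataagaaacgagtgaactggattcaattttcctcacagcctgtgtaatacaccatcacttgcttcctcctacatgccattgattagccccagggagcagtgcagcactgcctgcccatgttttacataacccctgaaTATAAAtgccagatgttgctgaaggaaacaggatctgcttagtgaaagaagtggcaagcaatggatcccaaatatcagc
The second AKR1C3 window, at chr10:5094164-5094463, is not shown, and it holds the start of the AKR1C3 coding stretch given above. The windows of AKR1C1 and AKR1C2 were identical at 288 of 308 aligned positions (93.5%). AKR1C1 shared 74.7% with the first AKR1C3 window, 71.6% with the second and 64.0% with AKR1C4. A reversed CCAAT box began 77 bases before the start in AKR1C1 and 81 in AKR1C2. In AKR1C3 it began 73 bases before the start in the first window and 86 in the second. No match was found in the AKR1C4 window. TATAAA was found in AKR1C4, beginning 29 bases before the start, and reversed in the first AKR1C3 window but not in the second. CCAAT occurs in 34.6% and TATAAA in 11.5% of all 35116 promoter windows of this length, so such matches are common.

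AKR1B10 (ENSG00000198074), a reductase of retinal and aliphatic aldehydes, was near absent in Empty and among the highest of the set by FPKM in LINC00862. It lies on chromosome 7 at 134527567 to 134541412 (hg38, plus strand), and AKR1B1 (134442356 to 134459284, minus strand) and AKR1B15 (134549110 to 134579875, plus strand) lie beside it within 137.52 kb. Its FPKM was 0.0962, 0.154 and 0.335 in Empty and 34.9, 33.1 and 28.2 in LINC00862. Empty library 3 stood above the other Empty libraries, yet far below each LINC00862 library. The log2 fold change was 7.48 (SE 0.39, adjusted p = 5.89e-07, edgeR), and without Empty library 3 it was 8.15. AKR1B10 was 0.00495 ± 0.00256 times AKR1B1 in FPKM in Empty and 0.961 ± 0.132 times in LINC00862.

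AKR1B15 (ENSG00000227471), the nearest relative of AKR1B10 with 86.4% of aligned coding bases identical, rose to a much lower level. Its counts were 0, 0 and 6 in Empty and 262, 199 and 152 in LINC00862, or up to 0.0239 FPKM against 1.02, 0.899 and 0.673 FPKM. The groups did not overlap. The ratio of normalised counts was 109, with an exact 95% interval of 49.8 to 298 that covers counting error only, and the log2 fold change was 6.65 (SE 0.86, adjusted p = 0.00014, edgeR). All Empty counts came from library 3, and without it the ratio has no measured denominator.

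AKR1B1 (ENSG00000085662), aldose reductase, which turns glucose into sorbitol in the polyol pathway, was the most abundant gene of the set in Empty. Its FPKM was 34.1, 36.4 and 43.0 in Empty and 38.3, 38.4 and 25.4 in LINC00862. The groups overlapped, and the log2 fold change was 0.0051 (SE 0.18, 95% interval -0.41 to 0.42, adjusted p = 0.983, edgeR). Its sign depended on the scaling, being -0.14 when libraries were scaled by size alone. The interval leaves room for a change of up to 0.42 in log2 units in either direction.

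AKR1D1 (ENSG00000122787), the 5β-reductase of bile acid and steroid hormone breakdown, was the lowest of the genes that rose. It lies on chromosome 7 at 138002324 to 138117986 on the plus strand. It had 0, 2 and 2 counts in Empty and 129, 168 and 110 in LINC00862, corresponding to at most 0.00892 FPKM and to 0.490, 0.741 and 0.479 FPKM. The groups did not overlap, and the ratio of normalised counts was 109 (exact 95% interval 42.1 to 401, counting error only). The log2 fold change was 6.62 (SE 0.67, adjusted p = 2.95e-05, edgeR).

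AKR1A1 (ENSG00000117448), the aldehyde reductase of glucuronate metabolism, differed little between the groups. It lies on chromosome 1 at 45550543 to 45570049 on the plus strand. Its FPKM was 14.6, 17.8 and 20.3 in Empty and 20.5, 20.2 and 16.6 in LINC00862, so the groups overlapped. The log2 fold change was 0.28 (SE 0.18, 95% interval -0.13 to 0.68, adjusted p = 0.200, edgeR). With upper quartile scaling it was 0.48 and passed the test (adjusted p = 0.0439), but that scaling moved the median of all genes from 0.11 to 0.32 as well.

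AKR7A2 (ENSG00000053371), which reduces aflatoxin dialdehyde and succinic semialdehyde, was the only gene of the set that fell. It lies on chromosome 1 at 19303965 to 19312146 on the minus strand. Its FPKM was 16.2, 18.1 and 21.3 in Empty and 7.37, 7.32 and 4.79 in LINC00862. Each LINC00862 library lay below each Empty library, and the log2 fold change was -1.36 (SE 0.20, 95% interval -1.82 to -0.90, adjusted p = 0.00034, edgeR). Its promoter, at chr1:19312097-19312396 on the minus strand, is shown because it alone among the promoters of the set found in the table held the core of the antioxidant response element (TGACNNNGC, in capitals), the sequence to which NRF2 binds.
AKR7A2: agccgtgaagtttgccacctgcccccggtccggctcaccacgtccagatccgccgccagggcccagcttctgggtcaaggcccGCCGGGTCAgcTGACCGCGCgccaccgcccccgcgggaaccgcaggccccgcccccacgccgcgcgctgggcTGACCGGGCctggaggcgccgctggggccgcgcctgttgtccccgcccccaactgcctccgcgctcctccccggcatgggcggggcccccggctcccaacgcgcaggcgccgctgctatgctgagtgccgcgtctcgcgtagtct
There were 3 matches, beginning 167, 156 and 95 bases before the start, the first of them on the other strand. The element was in 13.3% of all windows, and the AP-1 site TGACTCA, whose letters can overlap it, was in 4.95% of all windows and in none of the 11 windows of the set. Promoter windows were found for 8 of the 10 genes, all but AKR1B10 and AKR1B15, so these genes were not searched. Elements outside the windows, which run from 250 bases before to 50 bases after a start, were not searched either. A match in such a window is a description of its letters and not a bound site.

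**Figure D2:**
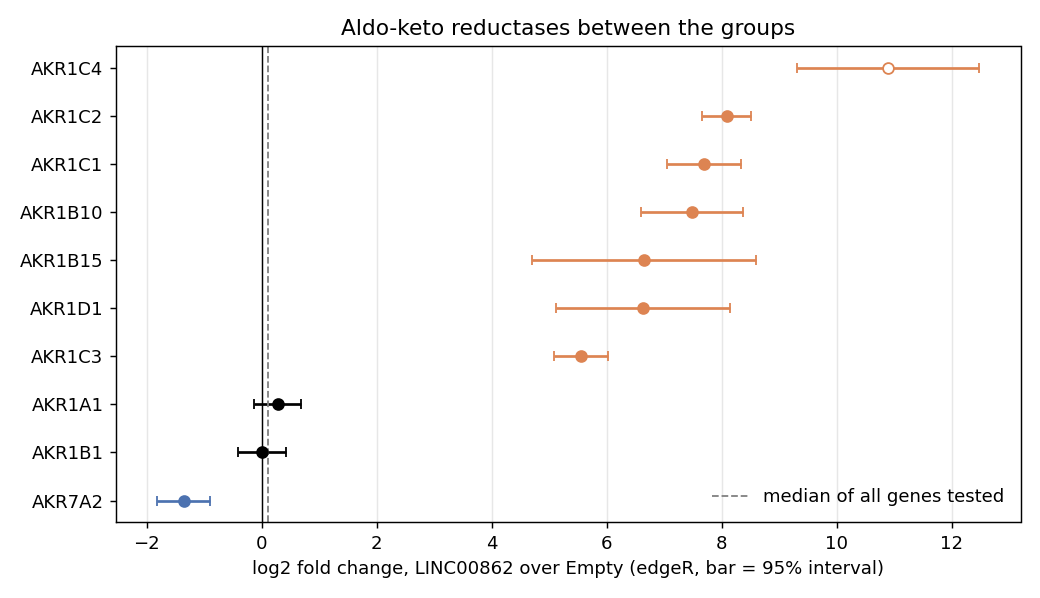
Log2 fold change (LINC00862 over Empty) of each aldo-keto reductase from edgeR, with 95% intervals. Orange marks the 7 genes that rose, blue the 1 that fell and black the 2 that did not pass, the open point (AKR1C4) depends on the prior count, and the dashed line is the median of all genes tested at 0.11.

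Among all 20741 genes tested, AKR1C2 ranked 733, AKR1C1 941 and AKR1B10 1068 by log2 fold change, followed by AKR1B15 at 1411, AKR1D1 at 1418 and AKR1C3 at 1755. The order of levels in FPKM also changed. In Empty, AKR1B1 (37.8 ± 4.63 FPKM) stood above AKR7A2 (18.5 ± 2.59 FPKM) and AKR1A1 (17.6 ± 2.83 FPKM), which overlapped each other. Then came AKR1C3 at 0.532 ± 0.0762 FPKM, and below it AKR1C2, AKR1B10 (0.195 ± 0.124 FPKM) and AKR1C1 (0.0915 ± 0.0272 FPKM), of which AKR1B10 overlapped each of the others. In LINC00862, AKR1C2 stood first, and AKR1B1 (34.0 ± 7.46 FPKM) and AKR1B10 (32.1 ± 3.43 FPKM) came next and overlapped. AKR1C3 (22.6 ± 2.80 FPKM), AKR1A1 (19.1 ± 2.18 FPKM) and AKR1C1 (17.3 ± 2.26 FPKM) followed, each overlapping the next. AKR7A2 (6.49 ± 1.47 FPKM), AKR1C4 (1.71 ± 0.254 FPKM), AKR1B15 (0.864 ± 0.176 FPKM) and AKR1D1 (0.570 ± 0.148 FPKM) closed the order, and only the last pair overlapped.

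The summed level of the 10 genes rose from 74.9 ± 10.2 to 186.6 ± 24.6 FPKM (SD, n = 3), and its makeup turned over. AKR1A1, AKR1B1 and AKR7A2 made up 98.6 ± 0.133% of the sum in Empty and 31.8 ± 2.08% in LINC00862. The AKR1C genes went from 1.12 ± 0.0681% to 50.2 ± 1.64%, and AKR1B10 with AKR1B15 from 0.258 ± 0.142% to 17.7 ± 0.478%. Every LINC00862 library lay on the same side of every Empty library in these shares (exact permutation p = 0.1 for each, the smallest possible). Within the AKR1C cluster, AKR1C3 held 63.5 ± 2.23% in Empty and 24.2 ± 0.407% in LINC00862, while AKR1C2 went from 25.6 ± 2.16% to 55.5 ± 0.685% and AKR1C1 from 10.8 ± 2.32% to 18.5 ± 0.572%. Taken from counts without scaling for length, the AKR1C share was 1.88% in Empty and 69.3% in LINC00862. After scaling to library size (CPM), 1 FPKM stood for 9.82 to 10.1 reads in AKR1C1 and 1.99 to 2.02 in AKR1B10. By mean share of counts in LINC00862, AKR1C1 (18.2%) stood above AKR1B1 (14.8%), AKR1C3 (10.6%), AKR1A1 (7.14%) and AKR1B10 (6.82%). By FPKM AKR1C1 stood below all of them.

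**Figure D3:**
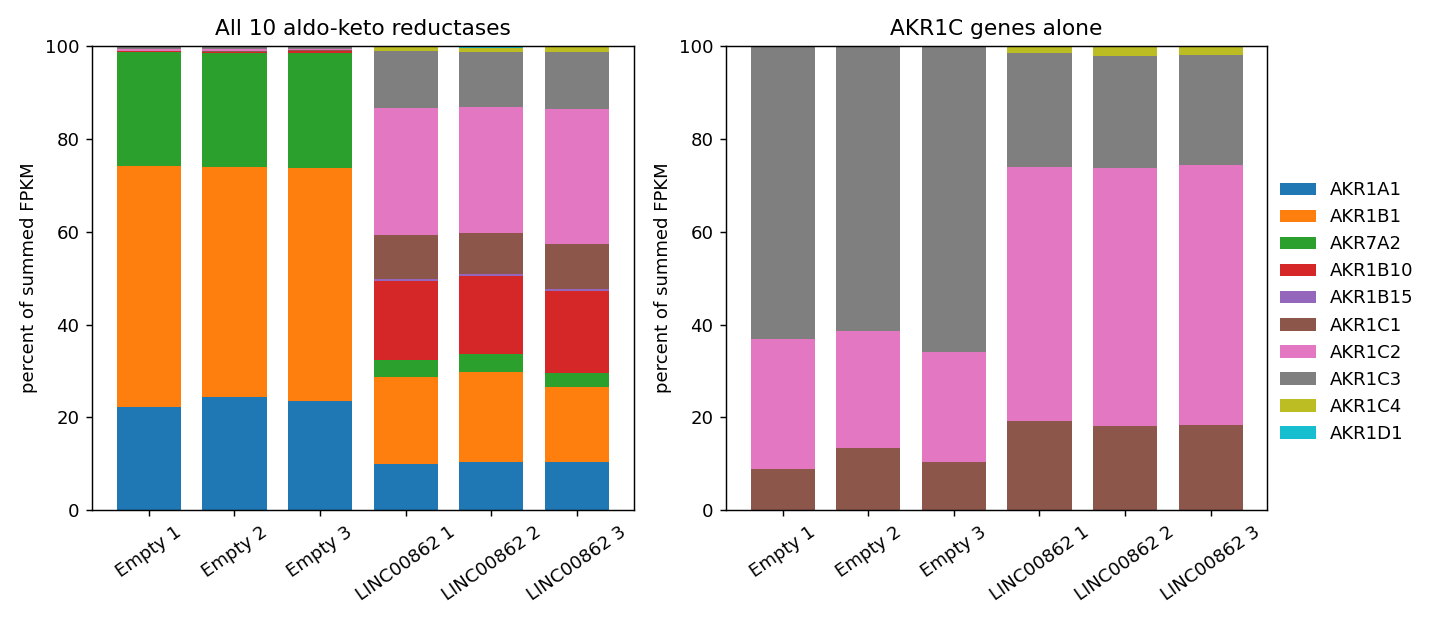
Share of each gene in the summed FPKM of all 10 aldo-keto reductases (left) and of the AKR1C genes alone (right), with 1 stacked bar per library and the vertical axis in percent. AKR1B1, AKR1A1 and AKR7A2 fill nearly all of the Empty bars on the left, and AKR1C2 replaces AKR1C3 as the largest part on the right.

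The spread among libraries of a group was shared by many of these genes. All 10 were lowest, within their group, in LINC00862 library 3, as were 53.8% of all genes tested. In Empty, 8 of the 10 were lowest in library 1, against 27.9% of all genes tested.

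The nearest tested genes on each side were read from the same fit. Around and inside the AKR1C cluster all 5 tested neighbours were higher in LINC00862, where 34.4% of all genes tested were higher. AKR1E2, a relative 115.191 kb before AKR1C1, had a log2 fold change of 4.36 (SE 0.38), and the noncoding LINC02561, 47.084 kb after AKR1C4, and LINC00705, 280.531 kb before AKR1C1, had 3.45 (SE 0.87) and 1.48 (SE 0.51). The call of LINC00705 was lost without Empty library 1 or 2 and without LINC00862 library 2 or 3, each value then being at most 1.42. AL391427 and AL355303 lie inside AKR1C2 and AKR1C4 on the opposite strand and had 4 and 0 counts over the Empty libraries. Because it is not known whether the counting used the strand, their counts cannot be told apart from reads of AKR1C2 and AKR1C4.

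In the AKR1B cluster, AKR1B10 and AKR1B15 lay between genes that changed less. AKR1B1, on the opposite strand, has its lowest coordinate 85.211 kb before that of AKR1B10 and did not pass. On the other side of AKR1B1, AC009275 did not pass either (log2 fold change 0.62, SE 0.41). SLC35B4, a nucleotide sugar transporter, was lower (-1.36), and CALD1, which encodes the cytoskeletal protein caldesmon, was lower (-1.94). BPGM, bisphosphoglycerate mutase, lies 66.936 kb after AKR1B15 and was higher by 0.54 (adjusted p = 0.0304, edgeR), a call that was lost without Empty library 3 or without any 1 LINC00862 library, at 0.50 to 0.58.

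**Figure D4:**
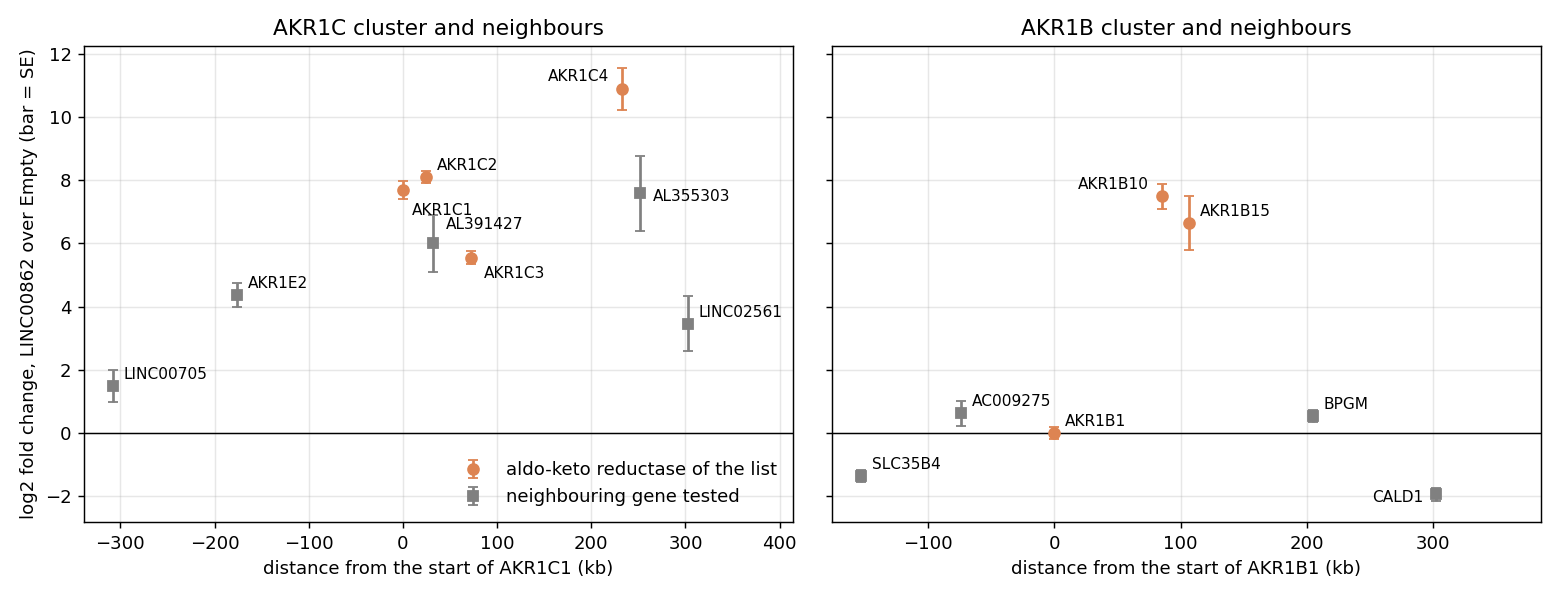
Log2 fold change (LINC00862 over Empty) with its standard error against distance in kb from the lowest coordinate of AKR1C1 (left) or AKR1B1 (right). Orange circles are aldo-keto reductases of the set and grey squares the nearest tested genes. All points on the left lie above 0, and on the right AKR1B10 and AKR1B15 stand at 7.48 and 6.65 while their neighbours lie between -1.94 and 0.62.

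The remaining genes had mixed neighbours. Beside AKR1A1, MMACHC, a cobalamin processing gene, was higher (1.49), CCDC17 was higher (1.11), PRDX1, a peroxiredoxin, was lower (-1.49) and NASP, a histone chaperone, was lower (-2.70). The call of CCDC17 was lost without Empty library 1 (0.86) or 2 and without LINC00862 library 1 or 3. Beside AKR1D1, CREB3L2, which lies 0.238 kb from it on the opposite strand, did not pass (0.20, SE 0.20) except without Empty library 1 (0.46). AC009245 did not pass (-0.15, SE 0.21). On the far side TRIM24 was higher (1.21), and SVOPL had no count in Empty and 127, 207 and 104 in LINC00862. SLC66A1 starts 0.18 kb from AKR7A2 on the opposite strand and was lower by a smaller amount (-0.61, SE 0.21), a call lost without Empty library 2 or 3 and without LINC00862 library 1 or 3 (-0.66 to -0.43). CAPZB was lower (-1.71), and AL035413 did not pass (-1.22, SE 0.72).

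On the other side of AKR7A2 lies AKR7A3, a further aflatoxin aldehyde reductase with 85.3% of aligned coding bases identical to it, and it moved the opposite way. Its FPKM was 0.775, 1.13 and 1.27 in Empty and 22.7, 23.6 and 17.2 in LINC00862, without overlap. The log2 fold change was 4.46 (SE 0.26, adjusted p = 1.14e-06, edgeR). AKR7A3 and the neighbouring AKR7L, at 95.5% identity, shared 6.21% of the 150-base stretches of AKR7A3, so reads can be divided wrongly between them. AKR7L had a log2 fold change of 1.67 (SE 0.41).

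Of 6 tested genes of the superfamily outside the set, 4 were higher and 1 was lower, so that 83.3% passed, against 64.2% of all genes tested. Besides AKR7A3, AKR7L and AKR1E2, KCNAB2, a potassium channel β subunit with an aldo-keto reductase fold, was higher (0.74, SE 0.14). KCNAB3 was lower (-1.93, SE 0.29), and KCNAB1 did not pass (-0.23) and had the opposite sign, 0.24, without LINC00862 library 1. The median of the 6 was 1.20.

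NRF2 drives many detoxifying genes and is held back by KEAP1. NFE2L2, which encodes NRF2, was at 15.0, 11.8 and 11.9 FPKM in Empty and 20.7, 20.9 and 16.2 FPKM in LINC00862, a log2 fold change of 0.75 (SE 0.14, adjusted p = 0.00115, edgeR). KEAP1 was at 17.0 ± 2.59 FPKM in Empty and 11.3 ± 2.52 FPKM in LINC00862 (SD, n = 3) and did not pass (-0.43, SE 0.19, adjusted p = 0.0749, edgeR). It passed under 4 of 15 alternative settings, among them without Empty library 1 (-0.54) and with scaling by library size alone (-0.58). Its groups did not overlap. Of 7 regulators of this pathway 2 were higher, 2 were lower and 3 did not pass, and 1 was lower without Empty library 2 or without any 1 LINC00862 library. The share of regulators that passed was 57.1%, against 64.2% of all genes tested. MAFK, a small partner protein of NRF2, was higher (2.62, SE 0.14), and NFE2L1 did not pass (0.19, SE 0.18).

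Of all genes tested, 64.2% passed, and of 21 tested NRF2 target genes outside the set 76.2% did. Of these targets, 12 were higher, 4 were lower and 5 did not pass, with a median log2 fold change of 0.67. The most abundant were the ferritin chains FTL (0.30, SE 0.24) and FTH1 (0.44, SE 0.24), which did not pass. FTH1 passed without Empty library 3 (0.66) and with upper quartile scaling (0.65). NQO1, a quinone reductase, was higher (1.22, SE 0.16), from 40.1, 43.6 and 48.9 FPKM to 99.6, 96.1 and 80.7 FPKM. TALDO1, of the pentose phosphate pathway, did not pass (-0.45, SE 0.22). It passed under 4 of 15 alternative settings, among them without Empty library 1 (-0.65) and with scaling by library size alone (-0.60). The number of lower genes was 6 without Empty library 1.

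Of 12 tested genes of bile acid synthesis, the pathway of AKR1D1 and AKR1C4, 9 were higher, 1 was lower and 2 did not pass, with a median of 2.43, where 34.4% of all genes tested were higher and the median was 0.11. The most abundant 4 were all higher, namely SCP2 (0.76), HSD3B7 (1.45), HSD17B4 (0.49) and AMACR (3.78), a racemase of bile acid precursors that rose from 1.09 ± 0.0751 to 13.3 ± 0.761 FPKM. The call of HSD17B4 was lost without Empty library 2 or 3 and without LINC00862 library 1 or 2, at 0.36 to 0.52. Of 16 tested genes of steroid metabolism, 11 were higher, 2 were lower and 3 did not pass, with a median of 1.58. HSD17B12 (1.65), HSD17B8 (3.74) and SRD5A3 (3.83) were higher, and the mitochondrial HSD17B10 was lower (-0.99, SE 0.24).

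Retinoid and polyol metabolism, in which the AKR1B enzymes act, had 20 tested genes, 12 higher, 3 lower and 5 that did not pass, with a median of 2.17. Thus 75% passed, against 64.2% of all genes tested. The retinal reductase DHRS3 (4.93) and the retinol dehydrogenase RDH10 (3.95) were higher, and RDH11 (-0.24, SE 0.13) and RDH14 (0.46, SE 0.18) did not pass. Of 15 alternative settings, RDH14 passed under 2, DESeq2 (0.51) and upper quartile scaling (0.67). RDH11 passed under 3, among them scaling by library size alone (-0.41). Among 9 genes of prostaglandin metabolism 4 were higher and 2 lower, so that 66.7% passed, with a median of 0.26. PTGS2, the inducible cyclooxygenase, rose from 0.305, 0.221 and 0.556 FPKM to 52.4, 52.3 and 53.6 FPKM (7.35, SE 0.37). PTGES3 (-1.05) and PTGR1 (-1.48) were lower, and PTGES2 did not pass (0.26).

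Carbonyl reductases and aldehyde dehydrogenases outside the superfamily made up the last list. Of 14 tested, 3 were higher, 7 were lower and 4 did not pass, with a median of -0.36, where 34.4% of all genes tested were higher and 29.8% lower. Whether this list differs from other genes was not tested. ADH5, the alcohol dehydrogenase that clears formaldehyde, fell from 32.8, 35.9 and 34.0 FPKM to 6.18, 5.33 and 5.11 FPKM (-2.46, SE 0.15), and DHRS7 was higher (2.48, SE 0.14). DCXR (0.41, SE 0.25) and CBR1 (-0.39, SE 0.19) did not pass, although DCXR passed without Empty library 3 (0.74). CBR1 passed under 4 of 15 alternative settings, among them without Empty library 1 (-0.57) and with scaling by library size alone (-0.54). CBR1 is also on the list of NRF2 targets. The count of higher genes was 5 without Empty library 3.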

How the data were processed

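RNA from 3 LINC00862 and 3 Empty samples of HCCLM3 cells was sequenced from polyadenylated, strand-marked libraries with paired reads of 150 bases. For each gene in each library the authors deposited an unnormalised read count and an FPKM value, in which fragments are scaled by transcript length and mapped fragments. The submitters' processing notes name cutadapt 1.9, HISAT2 2.0.4, StringTie 1.3.4d, UMI-tools, DESeq2, edgeR and the build hg38, without their roles. Columns with the authors' own comparisons were not used. The sample labels gave the groups and the replicate numbers. No source says that the replicates came from separate cultures, so p-values measure the spread between these libraries, which may be technical.

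The counts went through edgeR 4.0.16 under R 4.3.3 (filterByExpr, TMM, quasi-likelihood test, Benjamini-Hochberg adjustment over 20741 genes, threshold 0.05). Standard errors were derived from the test statistic. Single values of FPKM were compared by exact two-sided permutation. Other settings were DESeq2 1.42.0, scaling to the upper quartile or to library size alone, every gene with at least 1 count, a replicate block, each library left out, limma 3.58.1 on log2(FPKM + 1) and log2(FPKM + 0.1), a false discovery rate of 0.01 and a test against a fold change of 2. A count of 3 served as the floor. Intervals of counts and floors cover counting error only. Promoters came from RefSeq (GRCh38.p14) and coding sequences from GENCODE 29, and figures were drawn with Python 3.11.15.

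The members, the gene lists and the tests were chosen with earlier results of these data known. Genes named are LINC00862, the 10 members, NFE2L2, KEAP1, the 4 genes of each pathway list with the highest mean FPKM over all libraries, the 2 nearest tested genes on each side of each locus, other superfamily genes with a mean of at least 0.1 FPKM in either group, and the markers ALB, AFP, APOA1 and VIM. The markers TTR, APOH, APOA2, SERPINA1, FGA, FGB, FGG, H19, CDH5 and CD68 were chosen after their values were seen. The values of 1 marker gene and 1 of the promoter motifs searched are not reported here.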

Additional observations from a re-analysis of the deposited data

How the results depend on the processing

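The direction and the call of 8 of the 10 aldo-keto reductases were the same under every alternative run, and 7 of them were higher and 1 lower throughout. The exception to the count was upper quartile scaling, under which 9 passed, 8 of them higher, because AKR1A1 then passed (log2 fold change 0.48). AKR1B1, which passed under no alternative, changed sign to -0.14 with scaling by library size only, to -0.010 with every gene of at least 1 count, to -0.16 with limma on log2(FPKM + 1) and to -0.17 with log2(FPKM + 0.1), and lay between -0.11 and 0.15 when 1 library was left out. AKR1B15 depended most on 1 library, being 6.06 without Empty library 1 and 10.71 without Empty library 3, when Empty had no count, and the latter value depends on the prior count. AC009245 reached 0.059 with upper quartile scaling and lay between -0.32 and 0.011 when 1 library was left out, and KCNAB1 lay between -0.57 and 0.24. Over all genes 13321 passed, 12063 to 14285 when 1 library was left out and 8010 in the test against a fold change of 2. The cause of these changes was not tested, apart from the stricter null of the last.

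Libraries with the same replicate number were not treated as pairs. The correlations of same-numbered deviations from the group means were -0.0489, -0.0254 and -0.00737. A small shared effect could give such values too, so they do not settle whether those libraries were prepared together. With a replicate block, 12098 genes and the same number of members (8) passed.

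With 3 libraries per group, changes within the intervals of AKR1A1 and AKR1B1 could not be detected. AKR1B15, AKR1C4 and AKR1D1 had at most 6 counts over the Empty group, so the size of their rise is known only roughly. The counting intervals and the bound leave out the spread between libraries. The edgeR intervals of the log2 fold change, which include that spread, ran from 4.70 to 8.60 for AKR1B15 and from 5.11 to 8.14 for AKR1D1.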
